A study of Homo sapiens with 4 samples.

Results

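AP-1 is a family of dimeric transcription factors, and the genes described here are its subunits together with companions of the same early response in MDA-MB-231, a widely used line of human breast cancer cells that lack the oestrogen, progesterone and HER2 receptors. They were chosen by name as FOSL1, FOSL2, FOS, JUN, JUNB, JUND, ATF3, EGR1, IER2 and IER3. The table listed 8 of these 10 genes among 7698 protein-coding genes. FOS and EGR1 were not analysed here. All 8 passed the filter on low values, at least 1 FPKM (fragments scaled to transcript length and library total) in at least 2 libraries.

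RNA sequencing compared 2 libraries of cells labelled siPCBP2, a name for RNA interference of the RNA-binding protein PCBP2, with 2 libraries of untreated cells. The treatment label names PCBP2 itself as what was transfected, against the titles and source names. PCBP2 mRNA, the check on this, measured 16.6 and 16.7 FPKM in siPCBP2 cells, against 101.4 and 92.9 FPKM in untreated cells. No control RNA was named for the untreated cells, so the act of transfection and the loss of PCBP2 cannot be told apart. Separate cultures are not stated for the 2 libraries of either group, and the p-values thus measure a spread that may be technical.

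AP-1 binds DNA as a dimer of proteins with a basic region and a leucine zipper (bZIP). FOS-family proteins must pair with a JUN-family partner, while JUN proteins can also pair with each other. Immediate-early genes are those that a growth factor or stress signal switches on through ERK, JNK and p38 kinases without new protein synthesis. Their mRNAs are mostly short-lived. High FOSL1 protein (FRA-1) is a known feature of invasive breast cancer lines such as MDA-MB-231.

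Several of these genes are themselves under the control of bZIP dimers, so promoter stretches are shown for the members whose RefSeq window holds a bZIP motif. RefSeq windows (GRCh38.p14, from 250 bases before to 50 bases after an annotated start) were found for 6 of the 8 genes, FOSL2, JUN, JUNB, JUND, ATF3 and IER2. They were searched on both strands for the AP-1 site TGACTCA, the cyclic AMP response element TGACGTCA, its variant TGACATCA and the CArG box, which binds SRF. Motifs were found in 4 of the 6 genes. Capitals mark the motif, and each stretch reads 5′ to 3′ on the strand of its gene.
JUND, chr19:18281623-18281872, minus strand: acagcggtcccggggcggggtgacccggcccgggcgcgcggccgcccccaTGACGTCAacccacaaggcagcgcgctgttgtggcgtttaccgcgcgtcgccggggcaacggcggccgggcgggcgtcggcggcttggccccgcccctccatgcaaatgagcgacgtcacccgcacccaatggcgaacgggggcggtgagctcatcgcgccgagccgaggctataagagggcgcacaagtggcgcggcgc
ATF3, chr1:212565157-212565333, plus strand: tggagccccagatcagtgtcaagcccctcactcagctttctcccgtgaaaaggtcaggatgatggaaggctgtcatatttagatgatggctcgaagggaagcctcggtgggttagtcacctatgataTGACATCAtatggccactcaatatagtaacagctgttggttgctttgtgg
JUN, chr1:58784096-58784125, minus strand: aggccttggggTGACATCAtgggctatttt
FOSL2, chr2:28392851-28392880, plus strand: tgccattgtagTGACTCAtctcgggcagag
The motif of JUND began 200 bases before the RefSeq start, that of ATF3 123 and that of JUN 67 bases before it, while that of FOSL2 lay just after it. In GENCODE v29 the JUN gene starts farther upstream, at base 58784327, and the FOSL2 gene at base 28392448. By that annotation the JUN stretch lies inside the 1 exon of JUN, and the FOSL2 stretch inside its gene. Of all 35114 RefSeq windows of this length, 4.95% held the AP-1 site, 1.85% the TGACGTCA element, 2.61% the TGACATCA variant and 1.29% a CArG box. A match describes these letters and is not evidence of binding. The ATF3 stretch lies before the farthest upstream of 6 annotated coding starts, and a second RefSeq window of ATF3 held none of the motifs.

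FOSL1 and IER3 stood far above the other members in every library, as the plot of levels by gene shows. FOSL1, which like FOSL2 lacks the transactivation domain of FOS, measured 424.2 and 356.7 FPKM in siPCBP2 cells, against 209.3 and 267.2 FPKM in untreated cells. Both siPCBP2 libraries were above both untreated libraries. It ranked 66 and 74 from the top of the 7698 listed genes in siPCBP2 cells and 156 and 119 in untreated cells. IER3, which encodes a membrane-associated regulator of apoptosis and ERK signalling rather than a DNA-binding protein, measured 407.7 and 352.4 FPKM in siPCBP2 cells, against 401.0 and 458.8 FPKM in untreated cells. The IER3 groups overlapped.

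**Figure D1:**
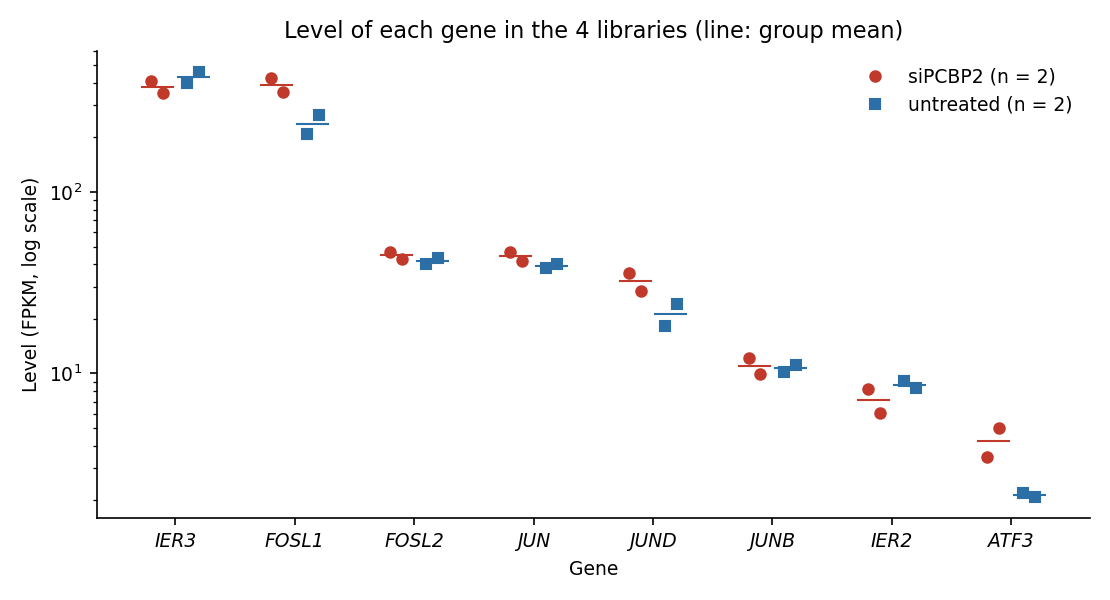
Level of each gene in FPKM on a log scale, with the siPCBP2 libraries as circles and the untreated libraries as squares, and a line at each group mean (n = 2 each). FOSL1, JUN, JUND and ATF3 have both circles above both squares, and IER2 has both circles below.

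Among all members the order of levels was the same in both groups except at the top. In siPCBP2 cells the ranges of FOSL1 and IER3 overlapped, whereas in untreated cells IER3 lay above FOSL1 in both libraries. FOSL2 and JUN came next with overlapping ranges in both groups. JUND, JUNB, IER2 and ATF3 followed, each below the range of the gene before it in both groups.

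FOSL1 averaged 390.4 ± 47.7 FPKM in siPCBP2 cells and 238.3 ± 40.9 FPKM in untreated cells (SD, n = 2 each), a ratio of 1.64. Its log2 difference, siPCBP2 minus untreated on the log2(FPKM + 1) scale, was 0.72 (SE 0.16, unadjusted p = 0.00532, adjusted p = 0.181 by limma over all genes tested). The difference was positive with an unadjusted p under 0.05 in all 12 alternative fits, and no fit gave an adjusted p under 0.05. FOSL2, the other listed FOS-family gene (FRA-2 protein), measured 46.7 and 43.0 FPKM in siPCBP2 cells, against 39.9 and 43.6 FPKM in untreated cells. The groups overlapped, and its log2 difference was 0.10 (SE 0.12, adjusted p = 0.686).

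The JUN family supplies the obligate partners of FOSL1 and FOSL2. JUND, which is often expressed in resting cells and can act against proliferation, measured 35.9 and 28.6 FPKM in siPCBP2 cells, against 18.4 and 24.3 FPKM in untreated cells. Both siPCBP2 libraries lay above both untreated libraries, and the means were 32.2 ± 5.17 FPKM in siPCBP2 and 21.3 ± 4.19 FPKM in untreated cells (SD, n = 2 each), a ratio of 1.51. The log2 difference was 0.58 (SE 0.19, unadjusted p = 0.0247, adjusted p = 0.265 by limma). The unadjusted p was 0.124 without untreated replicate 1, where the log2 difference was 0.39, and 0.108 without siPCBP2 replicate 1, where it was 0.42.

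JUN, the prototype subunit and the main substrate of the JNK kinases, measured 46.9 and 41.5 FPKM in siPCBP2 cells, against 37.9 and 40.2 FPKM in untreated cells. The groups did not overlap, but the lower siPCBP2 library exceeded the higher untreated library by little, and the log2 difference was 0.17 (SE 0.12, adjusted p = 0.508 by limma). JUNB, a weaker transactivator than JUN, measured 12.1 and 9.97 FPKM in siPCBP2 cells, against 10.2 and 11.2 FPKM in untreated cells. The untreated values lay between the siPCBP2 values, and the log2 difference of 0.04 (SE 0.16) changed sign in 3 of the 12 alternative fits.

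ATF3 is a stress-induced bZIP protein that can pair with JUN proteins and mostly represses transcription as a homodimer. It measured 3.48 and 5.04 FPKM in siPCBP2 cells, against 2.21 and 2.10 FPKM in untreated cells. The groups did not overlap, and ATF3 was low among listed genes in all 4 libraries, at the 3.34 and 8.74 percentiles in siPCBP2 cells and the 1.23 and 0.935 percentiles in untreated cells. The ratio of the means was 1.98, and the log2 difference was 0.72 (SE 0.27, unadjusted p = 0.0390, adjusted p = 0.303 by limma), which the pseudocount of 1 understates: with a pseudocount of 0.1 it was 0.93. The unadjusted p was 0.0928 without untreated replicate 1, 0.103 without untreated replicate 2, 0.192 without siPCBP2 replicate 2 and 0.0598 with the replicate number as a block.

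IER2, a nuclear protein of the immediate-early response, was the member with both siPCBP2 libraries below both untreated libraries, at 8.20 and 6.10 FPKM in siPCBP2 cells, against 9.11 and 8.27 FPKM in untreated cells. The gap between siPCBP2 replicate 1 and untreated replicate 2 was small, and the log2 difference was -0.26 (SE 0.19, adjusted p = 0.532 by limma). IER3 had a log2 difference of -0.18 (SE 0.12, adjusted p = 0.519).

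By limma with Benjamini-Hochberg adjustment, 0 of the 8 members passed an adjusted p under 0.05, where 4 of 7689 genes tested did (0.0520%). At an unadjusted p under 0.05, 3 of the 8 members were higher in siPCBP2 cells, FOSL1, JUND and ATF3, and 0 lower, where 5.67% of all genes tested were higher and 9.73% lower. The siPCBP2 libraries lay above the untreated ones without overlap for 4 members, where 19.7% of all genes did so, and below for 1 member, where 29.4% did. The median log2 difference was 0.14 over the 8 members and -0.04 over all genes tested. That of the members was 0.07 without siPCBP2 replicate 1, 0.22 without siPCBP2 replicate 2 and 0.09 without untreated replicate 1. The authors' deposited table gave ratios of untreated over siPCBP2 of 0.610 for FOSL1 (p = 0.252), 0.663 for JUND (p = 0.387) and 0.517 for ATF3 (p = 0.675). The lowest p of a member in the authors' deposited table was 0.238, for JUN.

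**Figure D2:**
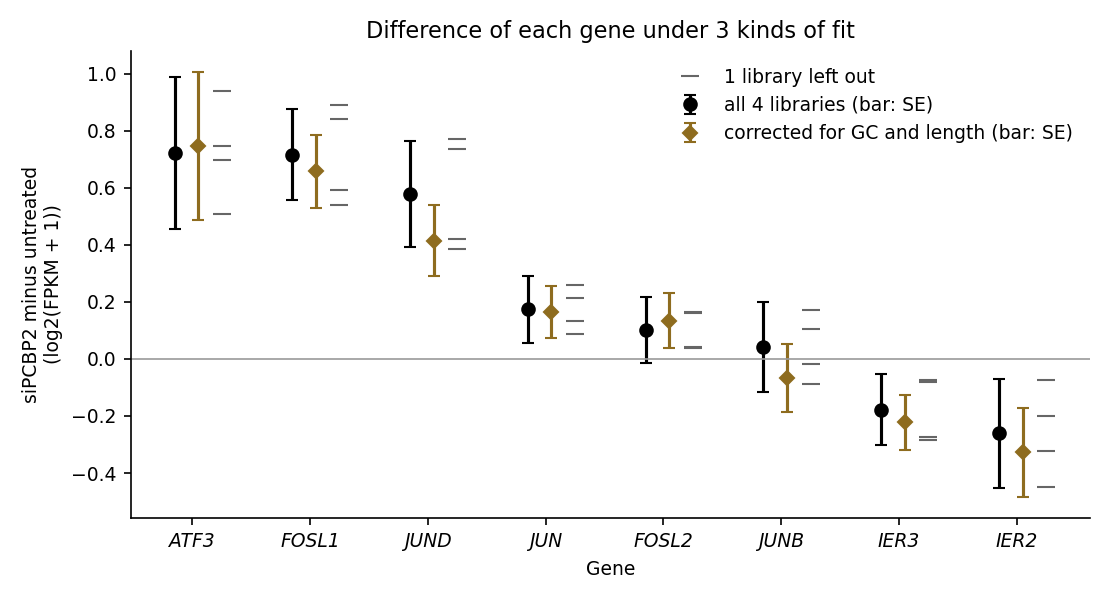
Difference of each gene, siPCBP2 minus untreated, in log2(FPKM + 1), from all 4 libraries (black, bar: SE), after correction for GC content and transcript length (brown, bar: SE) and with each library left out in turn (dashes). ATF3, FOSL1, JUND, JUN and FOSL2 stay above 0 under all of these, IER2 and IER3 stay below 0, and JUNB lies on both sides of 0.

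The median level of genes grouped by GC content differed between libraries, and most transcripts of the members are GC-rich. In the longest coding transcript GC content was 69.7% for JUND, 64.9% for JUNB, 61.7% for IER2 and 60.0% for FOSL1, and 50.8% for ATF3. In the decile of genes with the highest GC content, which holds JUND, JUNB and IER2, the median deviation from the mean of the 4 libraries was 0.17 in siPCBP2 replicate 1 and -0.08 in siPCBP2 replicate 2, against -0.09 in untreated replicate 1 and -0.01 in untreated replicate 2, in log2(FPKM + 1). In decile 9, which holds FOSL1 and IER3, that median was 0.12 and -0.08 in siPCBP2 replicates 1 and 2. In untreated replicates 1 and 2 it was -0.02 and 0.0048. Of the 8 members, 7 were higher in siPCBP2 replicate 1 than in siPCBP2 replicate 2, and 6 were higher in untreated replicate 2 than in untreated replicate 1. The shares of all genes that did so were not taken, so these counts have no background. The summed FPKM was also larger in siPCBP2 replicate 1, at 378204 against 352964 in siPCBP2 replicate 2. The part of GC content in these counts was not tested. ATF3 was the member higher in siPCBP2 replicate 2.

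After a correction of each library for GC content and transcript length, an alternative chosen after seeing the data, the log2 difference was 0.66 (SE 0.13, unadjusted p = 0.00349) for FOSL1 and 0.75 (SE 0.26, unadjusted p = 0.0336) for ATF3. That of JUND was 0.41 (SE 0.13, unadjusted p = 0.0208). The corrected adjusted p-values by limma were 0.149 for FOSL1, 0.266 for ATF3 and 0.228 for JUND. JUNB turned to -0.07 (SE 0.12), while JUN stood at 0.16 (SE 0.09) and FOSL2 at 0.13 (SE 0.10). IER3 stood at -0.22 (SE 0.10) and IER2 at -0.33 (SE 0.16).

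**Figure D3:**
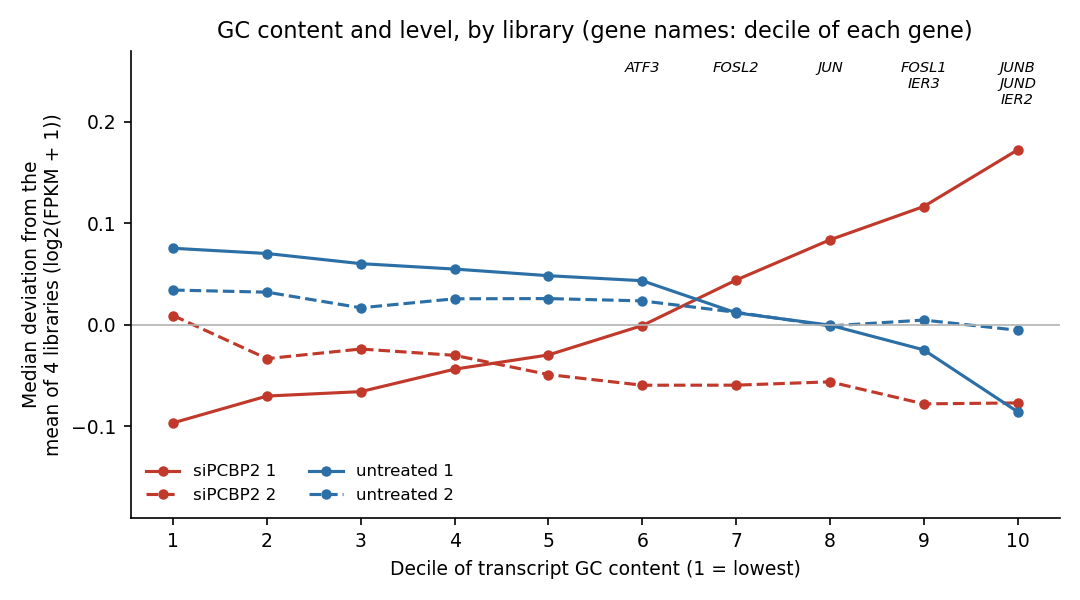
Median deviation of genes from their mean over the 4 libraries, in log2(FPKM + 1), by decile of transcript GC content, one line per library, with the gene names written above their decile. The line of siPCBP2 replicate 1 reaches 0.17 in the highest decile, where JUND, JUNB and IER2 lie, while the line of untreated replicate 1 ends at -0.09.

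Ratios within a library do not depend on its total. FOSL1 made up 74.5% and 73.6% of the summed FPKM of the 6 listed AP-1 genes in siPCBP2 cells, against 65.9% and 68.8% in untreated cells. The FOSL1 over FOSL2 ratio was 9.08 and 8.30 in siPCBP2 cells, against 5.25 and 6.14 in untreated cells. Relative to IER3, a gene of similar GC content, FOSL1 stood at 1.04 and 1.01 in siPCBP2 cells, against 0.522 and 0.582 in untreated cells. The groups did not overlap in any of these 3 measures. FOSL1, which did not overlap by itself, is the numerator of all 3, so they largely restate its separation. The log2 difference of IER3 was negative, at -0.18, which widens the ratio to IER3. The smallest two-sided p that an exact permutation test allows for 2 against 2 libraries is 0.333.

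Within the JUN family, JUN held the largest share of the summed FPKM, at 49.4% and 51.9% in siPCBP2 cells, against 57.0% and 53.1% in untreated cells. JUND held 37.8% and 35.7% of the summed FPKM of JUN, JUNB and JUND in siPCBP2 cells, against 27.7% and 32.1% in untreated cells. The ratio of JUND to JUNB, 2 single-exon genes of similar transcript length that are both in the highest decile of GC content, was 2.96 and 2.87 in siPCBP2 cells, against 1.81 and 2.18 in untreated cells. The GC content of JUND, 69.7%, was above that of JUNB, 64.9%, and these ratios were not corrected for it. The groups did not overlap in either measure of JUND, which did not overlap by itself. The summed level of FOSL1 and FOSL2 exceeded that of the 3 JUN genes in every library, at 470.9 and 399.6 FPKM against 95.0 and 80.1 FPKM in siPCBP2 cells. In untreated cells the sums were 249.2 and 310.8 FPKM for FOSL1 and FOSL2, and 66.4 and 75.6 FPKM for the 3 JUN genes.

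**Figure D4:**
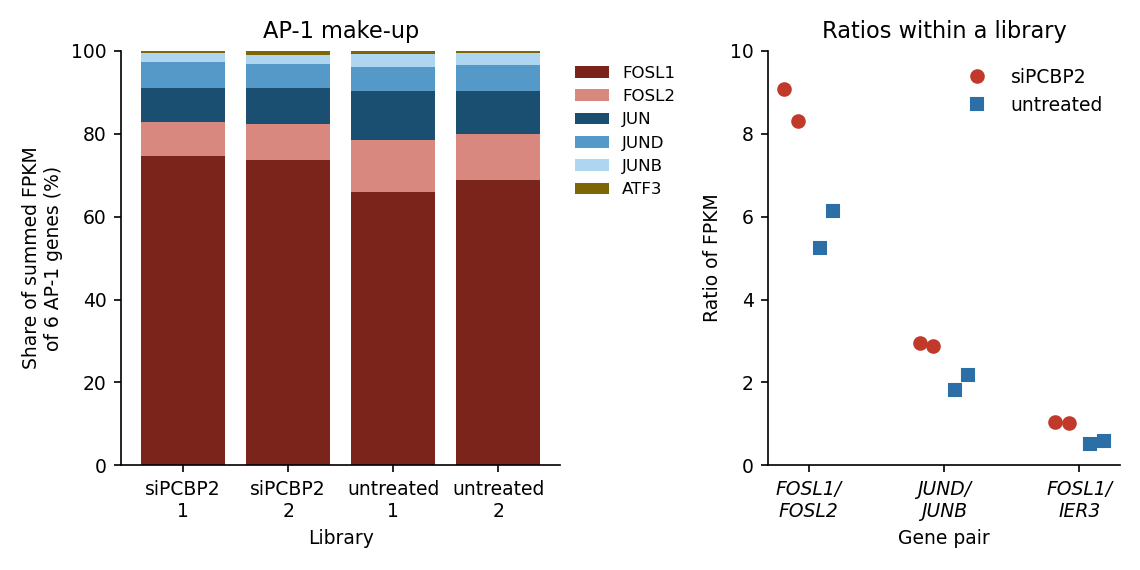
Left, share of each of 6 AP-1 genes in their summed FPKM, one bar per library, and right, ratios of FPKM between genes of the same library, with siPCBP2 as circles and untreated as squares. FOSL1 takes 73.6% to 74.5% in siPCBP2 libraries and 65.9% to 68.8% in untreated libraries, and the 3 ratios do not overlap between the groups.

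In gene structure the 3 JUN genes each had 1 exon in their longest coding transcript, while FOSL1, FOSL2 and ATF3 each had 4. On hg38, FOSL1 (ENSG00000175592) lies on the minus strand at chr11:65892049-65900573, JUND (ENSG00000130522) on the minus strand at chr19:18279760-18281622 and ATF3 (ENSG00000162772) on the plus strand at chr1:212565334-212620777. JUN lies at chr1:58780788-58784327 on the minus strand, JUNB at chr19:12791496-12793315 and FOSL2 at chr2:28392448-28417312 on the plus strand. IER2 lies at chr19:13150415-13154908 on the plus strand and IER3 at chr6:30743199-30744554 on the minus strand. In GENCODE v29, no member shares exon bases with another gene on its own strand. On the opposite strand, exons of IER2, IER3 and JUNB overlap those of AC011446.2, IER3-AS1 and HOOK2 by 946, 359 and 259 bases. No source used here says whether the libraries kept strand. Reads of these 3 genes and their antisense partners therefore may not be told apart.

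The genes whose 4 values ran most like those of FOSL1, by the Euclidean distance of centred log2(FPKM + 1) values, were PTPRR, PRR13 and COL17A1, at distances of 0.05, 0.07 and 0.08. PRR13 measured 25.7 and 21.7 FPKM in siPCBP2 cells, against 12.0 and 14.9 FPKM in untreated cells. COL17A1, a hemidesmosomal collagen, measured 8.75 and 6.69 FPKM in siPCBP2 cells, against 3.51 and 4.92 FPKM in untreated cells. PTPRR, a tyrosine phosphatase that acts on MAP kinases, measured 4.79 and 3.92 FPKM in siPCBP2 cells, against 1.80 and 2.52 FPKM in untreated cells. At such low levels the pseudocount of 1 shrinks differences, so the place of PTPRR depends in part on it. Within a distance of 0.2 there were 23 genes around FOSL1 (0.299% of the other genes tested) and 1031 around JUN (13.4%). The nearest to JUN were VPS25, POLDIP2 and ANGEL2, each at 0.02. With 4 libraries such likeness is a description only.

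Other bZIP proteins, only some of which are usual partners of AP-1 subunits, had a median log2 difference of 0.04 over 7 listed genes. That median was the value of CREB1. By limma, 1 of the 7 was above and 0 below the untreated level at an unadjusted p under 0.05, where 15.4% of all genes tested were under that p. With the replicate block or without either siPCBP2 library 0 of the 7 were under it, and without untreated replicate 1 there were 0 higher and 1 lower. In the fit of all 4 libraries that gene was MAFK, a small MAF protein that lacks a transactivation domain. MAFK measured 7.18 and 6.40 FPKM in siPCBP2 cells, against 4.58 and 4.36 FPKM in untreated cells (log2 difference 0.51, SE 0.18, adjusted p = 0.289 by limma).

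Other immediate-early genes went both ways. Of 25 listed, 7 were higher and 5 lower in siPCBP2 cells at an unadjusted p under 0.05, together 48.0% of the list, where 15.4% of all genes tested were under that p. This list, like the others, was chosen with earlier results of these data known, so its share is a description only. None passed the adjusted threshold. The median was -0.06, and 0.0040 after quantile normalization. It was 0.21 with a mean of at least 5 FPKM, where 23 of these genes were tested. Without siPCBP2 replicate 1 the counts were 4 higher and 5 lower. MYC, the growth-promoting transcription factor, measured 105.4 and 42.9 FPKM in siPCBP2 cells, against 6.13 and 7.42 FPKM in untreated cells (log2 difference 3.14, SE 0.41, adjusted p = 0.108 by limma). The siPCBP2 libraries of MYC were far apart from each other and both far above the untreated ones.

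Next among the higher genes, GADD45A, a stress-induced growth arrest gene, measured 31.3 and 35.6 FPKM in siPCBP2 cells, against 18.5 and 21.5 FPKM in untreated cells. PPP1R15A, which directs a phosphatase to the translation factor eIF2α, measured 120.5 and 115.0 FPKM in siPCBP2 cells, against 87.8 and 87.2 FPKM in untreated cells. Among the lower genes, CTGF, a matricellular growth factor that responds to YAP and SRF, measured 39.2 and 38.0 FPKM in siPCBP2 cells, against 67.5 and 72.4 FPKM in untreated cells. In all of these the groups were well separated, and none had an adjusted p by limma below that of CTGF, 0.106, or above that of PPP1R15A, 0.188.

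HBEGF, a ligand of the EGF receptor, measured 14.7 and 14.2 FPKM in siPCBP2 cells, against 22.0 and 22.2 FPKM in untreated cells. DUSP4, a nuclear phosphatase that inactivates ERK, measured 9.89 and 9.95 FPKM in siPCBP2 cells, against 18.8 and 18.9 FPKM in untreated cells. The other DUSP phosphatases among these immediate-early genes, named after their values were seen, did not move as a block. DUSP6 measured 15.0 and 15.5 FPKM in siPCBP2 cells, against 20.4 and 23.9 FPKM in untreated cells. DUSP1 measured 9.66 and 7.90 FPKM in siPCBP2 cells, against 4.26 and 4.90 FPKM in untreated cells. DUSP5 measured 41.6 and 36.0 FPKM in siPCBP2 cells, against 28.7 and 27.7 FPKM in untreated cells. DUSP4 and DUSP6 were thus lower and DUSP1 and DUSP5 higher in siPCBP2 cells, each without overlap, and none passed the adjusted threshold by limma. Over all genes tested, 29.4% were lower and 19.7% higher without overlap.

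Kinases and SRF factors that act upstream of AP-1 had a median log2 difference of 0.19 over 19 listed genes, 15 of them above 0, where 44.4% of all genes tested were above 0. At an unadjusted p under 0.05, where 15.4% of all genes tested lay, 2 were higher and 1 lower, and 5 and 0 after the GC and length correction. The median was 0.07 without siPCBP2 replicate 1, and without untreated replicate 2 none was higher at that p. MAP2K3, which activates p38, measured 38.6 and 38.6 FPKM in siPCBP2 cells, against 29.6 and 25.1 FPKM in untreated cells. SRF, which drives FOS and EGR genes through the CArG box, measured 32.5 and 25.8 FPKM in siPCBP2 cells, against 20.3 and 23.1 FPKM in untreated cells. MAPK14, the p38α kinase, measured 16.3 and 20.9 FPKM in siPCBP2 cells, against 30.6 and 23.3 FPKM in untreated cells. The groups did not overlap for these 3 genes, with adjusted p-values by limma of 0.221, 0.318 and 0.307.

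Genes known as AP-1 targets in other settings had a median log2 difference of -0.03 over 16 listed. By limma, 4 of them were lower in siPCBP2 cells and 0 higher at an unadjusted p under 0.05, and 0 passed the adjusted threshold. Over all genes tested 9.73% were lower and 5.67% higher at that p. There were 2 lower targets without untreated replicate 1, and 6 without siPCBP2 replicate 1, where the median was -0.22. After quantile normalization the median was 0.08, with 1 higher and 4 lower. IL11, a cytokine of the IL-6 family, measured 13.3 and 7.80 FPKM in siPCBP2 cells, against 27.6 and 28.9 FPKM in untreated cells (log2 difference -1.38, SE 0.24, adjusted p = 0.151 by limma). PLAU, the urokinase-type plasminogen activator, measured 55.5 and 54.1 FPKM in siPCBP2 cells, against 103.1 and 81.8 FPKM in untreated cells. VEGFA, an angiogenic growth factor, measured 52.4 and 44.1 FPKM in siPCBP2 cells, against 82.9 and 65.5 FPKM in untreated cells. All 3 were lower in both siPCBP2 libraries than in either untreated library.

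Regulators of AP-1 protein, such as ubiquitin ligases and coactivators, had a median log2 difference of -0.11 over 11 listed genes. By limma, 0 of the 11 had an unadjusted p under 0.05, where 15.4% of all genes tested did. None had an adjusted p under 0.05. Without the mean-variance trend of the fit, 1 was lower at that unadjusted p. The smallest p-values were those of DET1, part of a ligase complex that acts on JUN, and ITCH, itself a ligase of JUN proteins. DET1 measured 1.40 and 1.57 FPKM in siPCBP2 cells, against 3.58 and 2.19 FPKM in untreated cells, and ITCH 29.5 and 35.9 FPKM in siPCBP2 cells, against 38.2 and 37.1 FPKM in untreated cells. Factors of AU-rich mRNA decay, which shorten the life of many immediate-early mRNAs, had 1 gene higher and 1 lower of 11 at an unadjusted p under 0.05, where 15.4% of all genes tested lay. Without siPCBP2 replicate 1 the counts were 0 and 0, without untreated replicate 1 they were 0 and 1, and without untreated replicate 2 they were 1 and 0. The median of -0.04 became 0.05 after the GC and length correction. ZFP36L1, which promotes decay and is also counted among the immediate-early genes, measured 147.2 and 111.3 FPKM in siPCBP2 cells, against 80.5 and 94.1 FPKM in untreated cells. HNRNPD (AUF1), another AU-rich element binder, measured 94.5 and 122.4 FPKM in siPCBP2 cells, against 145.7 and 177.7 FPKM in untreated cells.

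**Figure D5:**
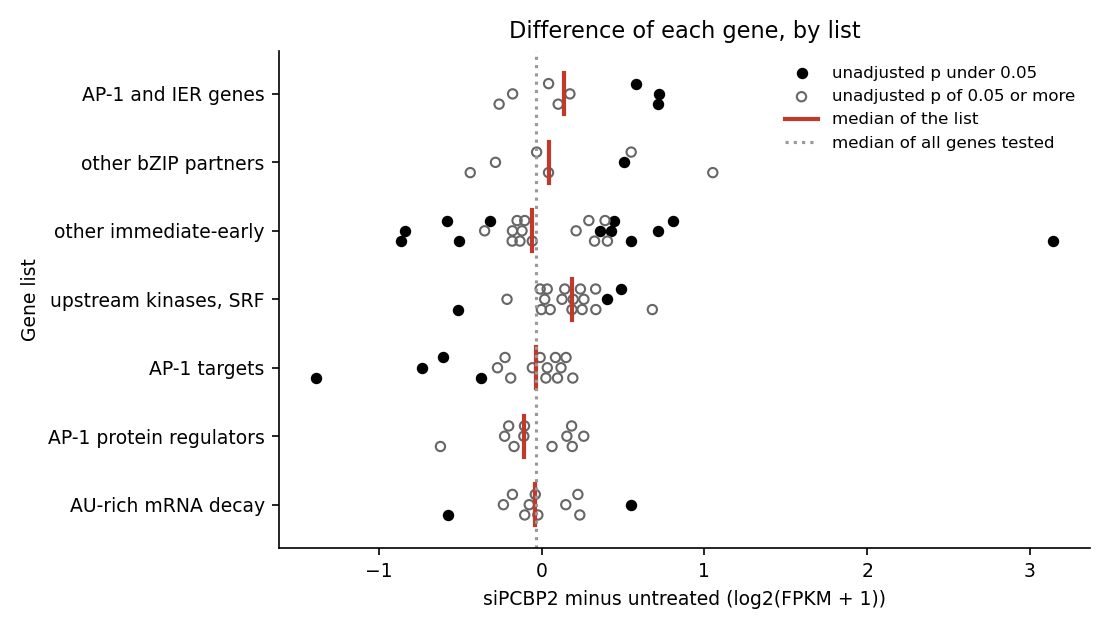
Difference of each listed gene, siPCBP2 minus untreated, in log2(FPKM + 1), by list, with filled points at an unadjusted limma p under 0.05, a red bar at the median of each list and a dotted line at the median of all genes tested, -0.04. The immediate-early genes spread to both sides with 7 higher and 5 lower, MYC farthest at 3.14, while the filled AP-1 target genes, 4 in number, are all lower.

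At an unadjusted p under 0.05 there were 436 genes higher and 748 lower in siPCBP2 cells over the whole table, a split that was 579 and 612 after quantile normalization and 606 and 672 after the GC and length correction. The summed FPKM of the listed genes was 378204 and 352964 in the siPCBP2 libraries, against 371693 and 376347 in the untreated libraries, and the depth is unknown. Of the fixed markers of this mesenchymal-like line, which also include the epithelial keratins KRT18 and KRT19, 7 of 9 were listed. Vimentin measured 474.7 and 502.0 FPKM in siPCBP2 cells, against 536.4 and 491.2 FPKM in untreated cells. All 7 had a negative log2 difference, where 4276 of 7689 genes tested were lower. Those of CD44, ZEB1 and vimentin were small, at -0.01, -0.06 and -0.07. By limma, 1 of the 7 had an unadjusted p under 0.05, where 15.4% of all genes tested did. That was KRT18, a keratin, at 45.9 and 44.9 FPKM in siPCBP2 cells, against 85.5 and 86.2 FPKM in untreated cells (log2 difference -0.90, SE 0.10, adjusted p = 0.0847 by limma). Of luminal, immune and endothelial or stromal markers, 0 of 5, 1 of 6 and 0 of 7 were listed, the one being CD68, a lysosomal gene that many cell types express. CD68 measured 35.2 and 38.7 FPKM in siPCBP2 cells, against 28.7 and 29.1 FPKM in untreated cells (log2 difference 0.35, SE 0.11, adjusted p = 0.269 by limma). The part of these markers in the results was not tested. In bulk RNA, fewer cells expressing a gene and less RNA per cell cannot be told apart.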

How the data were processed

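Poly(A)-selected RNA was sequenced in paired ends, per the labels' protocols. The submitters' processing notes name HISAT2 2.0, Trimmomatic 0.36, FastQC 0.11.2, bedtools 2.26.0 and hg38. The sources used here do not give the quantifier, its annotation or why these genes are listed. Per gene and library the authors deposited 1 value, taken as FPKM from its range because the header names no unit. Their deposited ratio (fold) is the untreated mean plus 0.1 over the siPCBP2 mean plus 0.1, with a match, to a relative 1e-06, in all 7698 genes. No source used here names the test behind the deposited p-values and q-values.

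The filter on low values (1 FPKM or more in 2 or more libraries) removed 9 genes. Values were tested as log2(FPKM + 1), siPCBP2 minus untreated, with limma 3.58.1 in R 4.3.3 (empirical Bayes with a mean-variance trend, two-sided) and Benjamini-Hochberg adjustment over all 7689 genes. With no counts, no counting interval was given. FPKM is relative, so abundant transcripts shift all other values. GC content and length came from the longest coding transcript in GENCODE v29, found for all but 21 genes, and the correction was a loess fit per library with a span of 0.5. Promoter windows are from RefSeq. In each other list, up to 3 higher and 3 lower genes with the smallest unadjusted p under 0.05 were named, or the 2 with the smallest p. Members and lists were chosen with earlier results of these data known.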

Additional observations from a re-analysis of the deposited data

How the results depend on the processing

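The 12 alternatives were a pseudocount of 0.1, no filter, a mean of at least 5 FPKM, quantile normalization, scaling to a common total, no mean-variance trend, the replicate number as a block, leaving out each of the 4 libraries, and the GC and length correction, which was chosen after seeing the data. No member passed an adjusted p under 0.05 in any of them. FOSL1, JUND, JUN and FOSL2 kept a positive and IER2 and IER3 a negative log2 difference in all 12, with FOSL1 between 0.54 and 0.89, JUND between 0.39 and 0.77, JUN between 0.09 and 0.26, FOSL2 between 0.04 and 0.16, IER2 between -0.45 and -0.07 and IER3 between -0.28 and -0.05. ATF3 was left out by the stricter filter and stayed between 0.51 and 0.94 in the other 11. The log2 difference of JUNB (0.04) ran from -0.087 without siPCBP2 replicate 1 to 0.17 without siPCBP2 replicate 2, was -0.02 without untreated replicate 1 and turned to -0.066 with the GC and length correction. The 3 members at an unadjusted p under 0.05 became 1 to 2 when 1 library was left out, with the lone library assumed to vary like the other group. Without untreated replicate 1 that member was FOSL1. The count of 4 genes past the adjusted threshold became 2 under quantile normalization and under the common total. It was 0 without the trend, with the replicate block and with any 1 library left out, where 1220, 940 and 630 to 1192 genes had an unadjusted p under 0.05. The cause was not tested. Replicate numbers are shared between the groups, but deviations of same-numbered libraries correlated at -0.0888 and the labels tie nothing to the number. The genes of the other lists at an unadjusted p under 0.05, 21 in all, stayed within 1.5 times of that as a pooled count in every alternative, while counts of single lists moved by more, such as 7 higher immediate-early genes against 4 without siPCBP2 replicate 1. The medians of the immediate-early, target, protein regulator and mRNA decay lists took both signs over the alternatives. The 2 libraries per group limit the precision.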
